A study of Drosophila melanogaster with 2 samples.

Results

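Intronic regions that ranked just below the set passing the irreproducible discovery rate (IDR) procedure were described in chromatin immunoprecipitation sequencing (ChIP-seq) of the Drosophila protein Hmx-eGFP. They were chosen by the deposited signal of the list pooled over both replicates. From the 6000 strongest regions of that list, the 1607 regions of the IDR set were dropped, and regions on the chromosome arms were kept whose summit lay inside a gene, in no exon and over 500 bp from every transcript start. This left 1858 members among 4393 regions at ranks 1608 to 6000 on the arms, or 42.3%. Of the other regions at these ranks, 1540 lay within 500 bp of a start, 600 were intergenic and 395 were exonic. The pooled list held 30000 regions and is labelled as peaks and background, so a member may be background and is not taken as called binding.

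The material was whole Drosophila melanogaster embryos of both sexes, 0 to 24 h old, of the strain Hmx-MiMIC-GFP, in which an eGFP exon placed in an intron of Hmx yields an Hmx-GFP fusion protein. Both samples, biological replicates 2 and 3, carry this insertion and form 1 group, and there is no second condition. The immunoprecipitation used an antibody against GFP per the sample description, although the antibody field names Hmx. Chromatin was sonicated, with a recorded size range of 200 to 800. Whole embryos mix all cell types and stages of this interval, so fewer bound cells and weaker binding per cell cannot be told apart. The control alignment was not analysed here, and no level in embryos without the fusion can be set beside the values. The files give no read counts, so the depth behind a region is unknown.

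Hmx is a homeodomain transcription factor of the NK-like class, known in animals for roles in the developing nervous system and sense organs. Introns of Drosophila developmental genes, above all long first introns, often hold enhancers that drive expression in particular tissues. The IDR procedure is meant to keep regions whose ranks recur between replicates. In these lists the IDR set was the 1607 strongest regions of the pooled list, so the members lay below a cut in pooled signal. The ranks beneath this limit may hold weaker binding, background or both, which were not told apart here.

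The sequences below show what the strongest members look like at their summits. They are the 101 bp centred on the summit of 7 of the strongest members of the named genes on the arms for which sequence is printed, taken from the RefSeq copy of the dm6 assembly on the plus strand. Capitals mark matches, on either strand, to the motifs listed with the sequence results. At S the match is to CAAGTG, read on the minus strand. At how there are matches to TTTAAA, to CAGCTG and, on the minus strand, to TAAGTG. At rdx an AAAAAA run is followed by a match to TAATTG on the minus strand. Hr4 has TTTAAA and tara AAAAAA. No listed motif stood in the windows of NFAT and drn. The G+C content of the 7 windows ran from 23.8% at rdx to 41.6% at S.
S (chr2L:1075891-1075991): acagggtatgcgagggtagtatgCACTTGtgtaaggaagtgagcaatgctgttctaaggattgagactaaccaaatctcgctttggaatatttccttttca
how (chr3R:22049282-22049382): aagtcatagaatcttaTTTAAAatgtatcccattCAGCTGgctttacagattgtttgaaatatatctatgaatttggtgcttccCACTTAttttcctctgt
rdx (chr3R:14002158-14002258): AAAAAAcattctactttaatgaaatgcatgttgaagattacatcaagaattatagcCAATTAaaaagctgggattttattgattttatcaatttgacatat
Hr4 (chrX:1943886-1943986): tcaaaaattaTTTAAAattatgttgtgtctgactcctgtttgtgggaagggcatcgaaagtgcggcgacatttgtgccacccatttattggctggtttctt
NFAT (chrX:13641434-13641534): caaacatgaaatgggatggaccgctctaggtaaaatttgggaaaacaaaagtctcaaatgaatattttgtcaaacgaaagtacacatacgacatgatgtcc
drn (chr3R:9353492-9353592): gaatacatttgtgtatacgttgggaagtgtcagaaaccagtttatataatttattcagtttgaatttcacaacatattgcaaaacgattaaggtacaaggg
tara (chr3R:16253558-16253658): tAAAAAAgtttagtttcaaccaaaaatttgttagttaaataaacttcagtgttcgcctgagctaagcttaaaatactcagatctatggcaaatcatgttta

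The members formed a narrow band of signal. The deposited pooled signal, on the caller's own scale, ran from 44.7 to 78.3 with a median of 52.8, against a median of 105.9 for the 458 intronic regions of the IDR set. These values chose the members and are given as a description. Just above the band stood IDR regions in introns of puc (78.7), scrib (78.7) and mtgo (78.6). The strongest members were in Got1 (78.3), S (78.3) and how (78.2). The weakest were in Lmpt, scrib and Spn88Ea (each 44.7), and the next regions under the rank limit, in siz and Fur1, had the same rounded signal of 44.7. No step in signal marks either end of the band.

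The deposited q value, the expected share of false regions among those at least as strong, rose almost in step as the pooled signal fell. It ran from 0.709% to 21.1% with a median of 9.47%. In all 632 members, or 34.0% (95% Wilson interval 31.9 to 36.2%), had a pooled q value below 5%. The share was 43.6% for promoter, 32.2% for intergenic and 20.25% for exonic regions of the same ranks. The 632 were all 549 members of ranks 1608 to 3000, 83 of the 612 of ranks 3001 to 4500 and none of the 697 of ranks 4501 to 6000. Rank and q value both follow the pooled signal that chose the members, so this fall with rank is no separate result. Wilson intervals here and below cover counting error only, and regions that share a host gene are not independent of each other.

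The strongest members lay in genes of metabolism, signalling, adhesion and RNA control. Got1, which encodes an aspartate aminotransferase, held the strongest (2R 16139248 to 16139683), 787 bp from a start. S encodes Star, a membrane protein needed to export ligands of the EGF receptor, and its member (2L 1075723 to 1076158) lay 1870 bp from a start. The member in how, which encodes an RNA-binding protein of muscle and glia, lay 7141 bp from a start on 3R. The next were in rdx, which encodes a BTB adaptor of a ubiquitin ligase that acts on the Hedgehog effector Ci (78.1), in the nuclear receptor gene Hr4 (78.1), in the dystroglycan gene Dg (78.0) and in msn, which encodes a Ste20-type kinase (77.8). NFAT, a transcription factor gene (77.8), drn (77.8) and CG45088 with the overlapping CG6191 (77.7) completed the first 10. The Hr4 and NFAT members stood beside stronger regions, with IDR summits 199 and 258 bp away. The Hr4 member ranked only 10730 in replicate 2 and had no region of its own in replicate 3. The rdx member ranked 6879 in replicate 2 and 1031 in replicate 3. In all 30 of the 1858 members, or 1.61%, had an IDR summit within 500 bp, against 0.849% of the intron bases that the rule could have chosen.

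Members gathered near the start of genes and in first introns. The base of comparison is the 52.8 Mb of eligible intron bases, which are all bases on the arms that the rule could have chosen. The summit of 1250 members, or 67.3% (95% Wilson interval 65.1 to 69.4%), fell in a first intron of at least 1 transcript, against 43.4% of eligible bases. The share was 78.8% for intronic regions of the IDR set, 59.3% for intronic regions of ranks 6001 to 10000 and 50.9% for those of ranks 20001 to 30000. Among the members it was 73.2% at ranks 1608 to 3000, 66.8% at 3001 to 4500 and 63.0% at 4501 to 6000. The share therefore fell with rank across the pooled list, and stayed above that of eligible bases at the lowest ranks examined. No test was made, since the ranks are set by the rule.

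The median distance of a member from the nearest transcript start was 2430 bp, against 5612 bp for eligible bases, 1797 bp for IDR intronic regions and 4334 bp for ranks 20001 to 30000. Per 100 kb of eligible bases there were 8.80 members at 501 to 1000 bp from a start, 6.16 at 1001 to 2000 bp, 3.87 at 2001 to 5000 bp, 2.73 at 5001 to 10000 bp and 1.33 farther away. Within each of these 5 distance bins the members lay in first introns more often than eligible bases, from 84.3% against 69.2% in the nearest bin to 44.3% against 23.9% in the farthest. The exon-free stretch around a member had a median length of 6052 bp against 9525 bp around an eligible base. The farthest member from any start lay 47674 bp away, in hth.

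**Figure D1:**
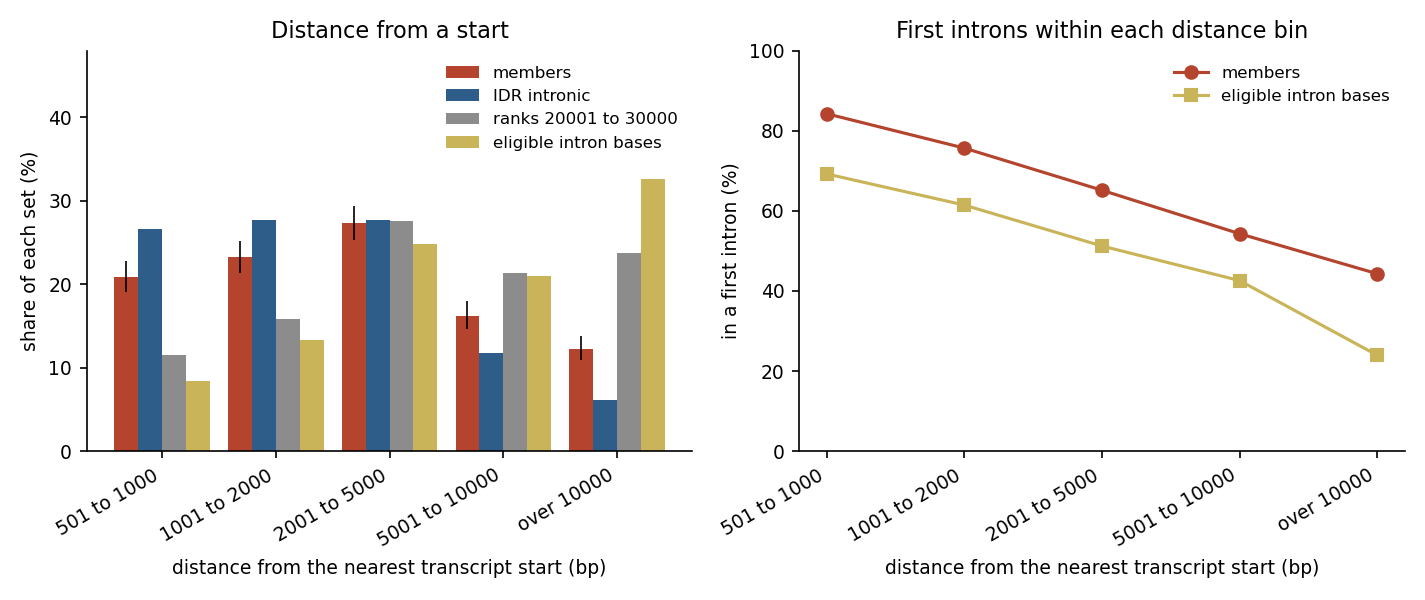
Left, share (%) of members, IDR intronic regions, intronic regions of ranks 20001 to 30000 and eligible intron bases by distance from the nearest transcript start, with 95% Wilson intervals on the members; right, share of members and of eligible bases in a first intron within each distance bin. Members take 20.9% of their number from the bin of 501 to 1000 bp, which holds 8.35% of eligible bases, and lie above the eligible bases at every distance on the right.

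Chromosome 4, the small heterochromatin-rich autosome, stood apart from the other arms. It held 47 members, which is 8.43 per 100 kb of eligible bases, against 3.05 on X, 3.17 on 2R, 3.56 on 3R, 3.65 on 3L and 3.92 on 2L. Intronic regions of the IDR set went the other way, with 2 on chromosome 4, or 0.359 per 100 kb, and 1.19 per 100 kb on X, where they were densest. The eligible bases of chromosome 4 had a G+C content of 32.6%, while the other arms had 39.4 to 40.4%. The part of base composition in the count on chromosome 4 was not tested. The hosts there included the Pax gene sv, the Polycomb group gene pho and the calcium-dependent secretion gene Cadps with 3 members each, and the Pax6 genes ey and toy with 2 each. Of the 47 members, 7 were among the 6000 strongest regions of both replicates, or 14.9% (95% Wilson interval 7.41 to 27.7%), against 23.9 to 27.3% on the other arms.

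Each replicate is 1 library, so the share on X has no replicate check. Of the members found among the 6000 strongest regions of replicate 2 only, 19.5% lay on X, against 12.01% of those found in replicate 3 only. When the rule was applied to each replicate's list alone, X held 17.7% of 1625 regions for replicate 2 and 13.1% of 1952 regions for replicate 3. Annotated transposable elements held 16 member summits, or 0.861%, against 7.12% of eligible bases, and 0.873% of IDR intronic summits. Whether reads could be placed in these elements was not tested.

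Members lay close to IDR regions more often than eligible bases did. An IDR summit, at a promoter or elsewhere, stood within 5000 bp of 505 members, or 27.2% (95% Wilson interval 25.2 to 29.3%). The same held for 8.32% of eligible bases and 11.1% of intronic regions of ranks 20001 to 30000. Members also lay nearer transcript starts than eligible bases did, and IDR summits at promoters are counted here. The part of distance from a start in this closeness was not tested. In all 767 members, or 41.3%, lay in a gene whose body held an IDR summit. No share of eligible bases in such genes stands beside this value, so it is not read as closeness to IDR regions. The median gap between neighbouring members on an arm was 21916 bp. However, 190 members had another member within 1000 bp. Some members overlapped each other, as in pyd (3R 8896854 to 8897289 and 8897056 to 8897491), so members are not all separate sites. Chains of 4 or more members, each within 1500 bp of the next, occurred at 3 genes. These were drn (4 members over 3152 bp of 3R), tou, which encodes a chromatin protein (4 over 2939 bp of 2R), and Pli, the fly Pellino gene (4 over 2432 bp of 3R).

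The members lay in 1103 host genes, of which 1074 were protein-coding. Among the 9534 genes with eligible intron bases, 11.6% hosted a member, and among the 9101 protein-coding ones 11.8%. A single member was the rule, in 695 hosts, while 199 hosts had 2, 209 had 3 or more and 74 had 5 or more. The count went with room. A host had a median of 10807 eligible bases against 453 over all genes with any, and the share of genes hosting a member rose from 0.511% of those with up to 500 such bases to 35.0% at 5001 to 15000 and 55.3% above 50000. Per 100 kb, however, members were fewest in the roomiest genes, at 1.72, and most frequent at 501 to 2000 bases, at 7.49. Of the 1103 hosts, 325, or 29.5%, also had an IDR summit in the body. Over all protein-coding genes with eligible bases this was 7.46%, a set with less room per gene. Hmx itself hosted no member in its 6784 eligible bases.

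Among the 20 hosts with the most members, genes of transcriptional control are given first, grouped by role after the hosts were ranked. The zinc-finger gene shn, whose product acts with Mad in BMP signalling, held 10 members in 43.0 kb of eligible bases, all of them in a first intron, and 7 IDR summits stood in its body. Their pooled signals ran from 46.1 to 74.5, and 2 were among the 6000 strongest regions of both replicates. Eip75B, a nuclear receptor gene induced by ecdysone, also held 10, in 92.1 kb, with signals of 45.1 to 70.5 and 3 found in both replicates. The strongest Eip75B member (3L 18005099 to 18005534) ranked 2722 in replicate 3 and had no region of its own in replicate 2. In both genes, as over all members (median 52.8), most lay nearer the lower limit of the band than the upper one.

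By count of regions the densest of these hosts was tara, which encodes a co-regulator of transcription and of the cell cycle. It held 9 members in 29.3 kb, or 3.07 per 10 kb, all in a first intron. Both replicates had 5 of them, which no host among the 20 exceeded. Some tara members overlapped each other (3R 16235754 to 16236189 with 16236046 to 16236481, and 16249769 to 16250204 with 16250072 to 16250507). The density therefore counts regions and not separate stretches. The strongest tara member (3R 16253390 to 16253825) had a signal of 77.4 and ranked 1474 in replicate 2 and 2617 in replicate 3. Next in density were gpp, which encodes a histone H3 methyltransferase of the Dot1 type (7 members, 2.37 per 10 kb), and shn (2.33), which also held overlapping members. In gpp 4 of the members were found in both replicates, among them the strongest, with a signal of 71.8.

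Other regulators of transcription had 7 or 8 members. The ETS activator gene pnt, an output of EGFR signalling, held 8, the strongest at 76.6 with ranks of 1891 and 1785 in replicates 2 and 3. The homeodomain gene hth, whose product is a partner of Hox proteins, held 8 in 118.6 kb and had no IDR summit in its body. The Notch coactivator gene mam held 8, beside 5 IDR summits. There were 7 members each in the bZIP gene Pdp1 (up to 77.3, all in a first intron), the BTB factor gene psq (up to 75.8), the co-repressor gene sbb (up to 74.3, all in a first intron) and bun, a gene of the TSC22 family (up to 67.6). Of these, psq had no IDR summit in its body.

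Other coding hosts among the 20 included genes of signalling, junctions and RNA. rdx held 8 members, 4 of them found in both replicates, with signals of 45.5 to 78.1. pyd, whose product is a junction scaffold related to ZO-1, held 8 in 84.9 kb. fz, which encodes the Frizzled receptor of Wnt and planar polarity signalling, held 7, and raskol, which encodes a Ras GTPase-activating protein, held 7 and had no IDR summit. The translational repressor gene pum held 8 in 153.8 kb, the sparsest of the 20, and none of them was found among the 6000 strongest regions of both replicates. Its strongest member reached only 59.0.

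The highest counts of all came from pairs of overlapping genes on X. The long non-coding RNA gene lncRNA:CR44357 held 14 members in 193.1 kb, and 11 of these were also inside CG1677. lncRNA:CR44999 held 11 in 97.9 kb, of which 9 were also inside CG12535. The strongest member of lncRNA:CR44999, with a signal of 77.1, lay outside CG12535 in Myc, the growth-promoting bHLH factor gene, which overlaps lncRNA:CR44999. Overlapping genes share these regions, so the files do not assign them to 1 gene. Over all members, 134, or 7.21%, lay in more than 1 gene.

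**Figure D2:**
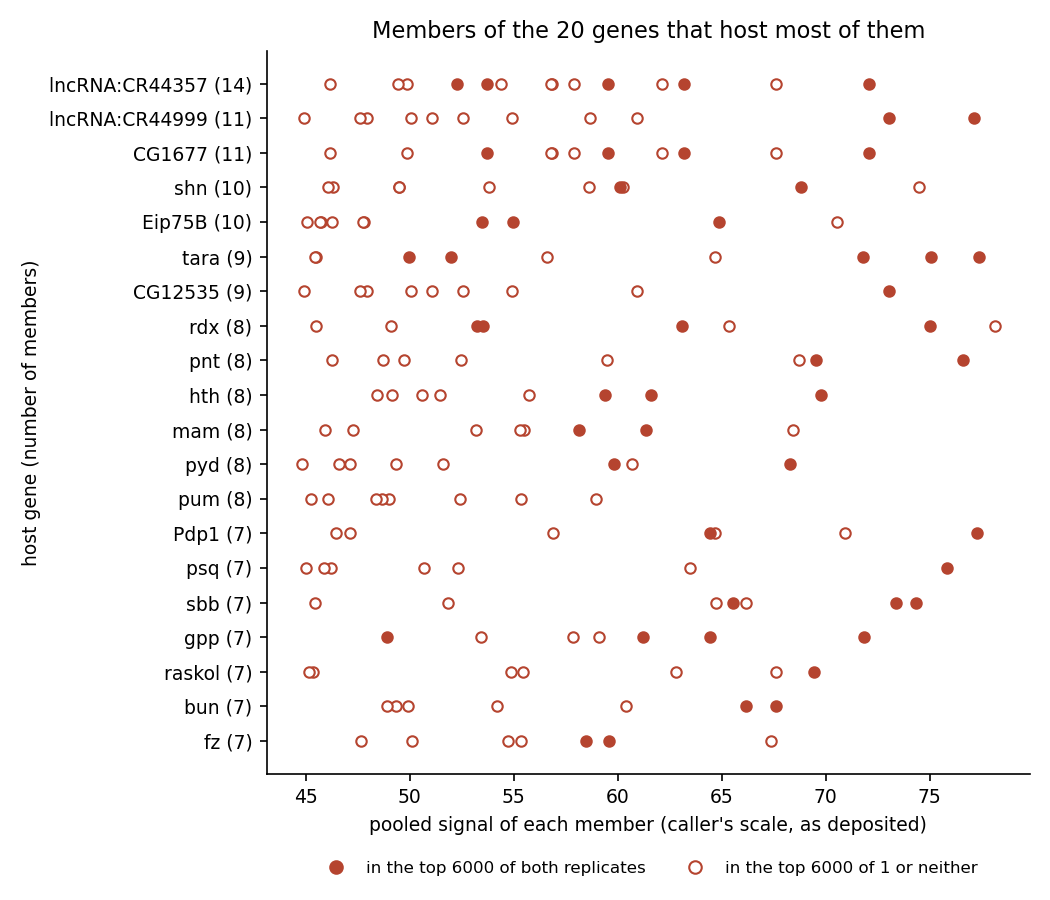
Pooled signal of each member (horizontal axis, caller's scale) for the 20 genes that host the most members, with the number of members in brackets; filled points are among the 6000 strongest regions of both replicates and open points are not. tara has 5 filled points of 9 and pum has none of 8.

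Gene lists were read against the number of hosts that genes of the same room would give. For each listed gene, this is the share of all protein-coding genes in the same bin of eligible bases that hosted a member, summed over the list. Zinc-finger factors of development had 24 hosts among 47 genes with eligible bases, against 15.5 for genes of like room. The list held pum by mistake, and without it there were 23 of 46 against 14.9. Apart from pum, its hosts with the most members were shn, psq and sbb, described with the 20 leading hosts. The BTB factor gene psq is not a zinc-finger gene either, and no count without it was made. With the rule applied to each replicate alone, replicate 2 and replicate 3 each gave 22 hosts for the full list.

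Nuclear receptor genes and the ecdysone response showed the same direction. Nuclear receptor genes held 32 members at 7.72 per 100 kb, where all members together came to 3.52, a comparison not matched for room. Of 18 such genes, 9 were hosts against 6.27 for genes of like room. Besides Eip75B these were led by ftz-f1 with 6 members (up to 64.6), the ecdysone receptor gene EcR with 4 (up to 71.3) and Hr4 with 3. The best ftz-f1 member ranked 2855 and 2882 in replicates 2 and 3, so it stood alike in both. The ecdysone list shares these genes, and 9 of its 15 were hosts against 6.53.

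Signalling pathways that pattern the embryo differed in their number of hosts, with no test made. In the EGFR and Ras list 11 of 22 genes were hosts against 6.12. They included pnt, the feedback inhibitor gene sty with 4 members (up to 63.7), S with 3 and the ETS repressor gene aop with 3 (up to 70.3). In the BMP list 8 of 18 were hosts against 4.67, with 11.4 members per 100 kb. These included the receptor genes tkv with 4 members (up to 60.6) and put with 1 (74.6), and the inhibitory Smad gene Dad with 3 (up to 62.7). Replicate 2 alone gave 5 BMP hosts and replicate 3 alone 10.

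The Wnt list had 10 hosts of 21 against 7.15. The receptor genes fz and fz2 (4 members, up to 57.6), the feedback inhibitor gene nkd (4, up to 55.9) and the glypican gene dlp (3, up to 61.7) led it. Replicate 2 alone gave 6 Wnt hosts and replicate 3 alone 11. The insulin and TOR list had 6 hosts of 18 against 2.96. It also had the highest density of any list, 14.5 members per 100 kb, from 14 members in 96.3 kb. Densities of lists are not matched for room. Over all genes density ranged from 7.49 per 100 kb at 501 to 2000 bases of room to 1.72 above 50000. The leading genes of the insulin and TOR list were foxo, a forkhead factor restrained by insulin signalling (4 members, up to 67.6), the insulin receptor gene InR (3, up to 54.8) and Pdk1, a kinase gene (2, up to 67.3). The Hedgehog list had 3 hosts of 12 against 3.37, the Notch list 4 of 16 against 4.25 and the Hippo and fat list 5 of 17 against 4.22. In the pooled list these pathways were thus near the number for genes of like room. For the Hippo and fat list replicate 2 alone gave 2 hosts and replicate 3 alone 7.

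Genes of epithelia were also frequent hosts. In the list of epithelial polarity and trachea 11 of 20 were hosts against 6.46. pyd, pnt, sty and tkv, several of which other lists also hold, led it. Axon guidance genes were near their number for like room in the pooled list, with 18 hosts of 40 against 16.9. Replicate 2 alone gave 13 such hosts and replicate 3 alone 23. The leading members of this list were in Sema1a (6 members, up to 54.2) and in Ptp10D (3, up to 76.8).

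Neuronal effector genes hosted fewer members than genes of like room. Of 49 neurotransmitter receptor genes, 8 were hosts against 15.9, with 1 member each, among them nAChRalpha1 (65.1) and Nmdar1 (54.5). Of 31 genes of synapse assembly and release, 4 were hosts against 10.2, led by the scaffold gene dlg1 with 3 members (up to 64.4). Voltage-gated and related channels had 8 hosts of 34 against 11.97, with Piezo, a mechanosensitive channel gene, holding 3 (up to 63.9). The dpr and DIP genes, cell surface proteins by which neurons recognise partners, had 3 hosts of 32 against 12.5, with 0.217 members per 100 kb. These were dpr16, dpr8 and dpr12.

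The replicates did not place these neuronal lists alike. Replicate 3 alone gave 12 hosts among neurotransmitter receptors, 8 among synapse genes, 18 among channels and 10 among dpr and DIP genes. Replicate 2 alone gave 4, 3, 6 and 2. Replicate 3 also gave more hosts over all genes, 12.4% of protein-coding genes with eligible bases against 10.7% for replicate 2, which is a smaller difference than in these lists. The counts for channels in replicate 3 lay above the 11.97 computed from the pooled members, so the lower count of channels is that of the pooled list and of replicate 2.

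Homeobox genes, the class to which Hmx belongs, were not frequent hosts in the pooled list. Of 21 NK and Hox class genes with eligible bases, 6 were hosts against 7.19. NK7.1, an NK class gene, held 5 members, the strongest with a signal of 77.5 and ranks of 1650 and 2342 in replicates 2 and 3. The Hox gene Antp held 7 (up to 62.1), and pb (up to 72.3) and abd-A (up to 54.2) held 2 each. Other homeobox genes had 12 hosts of 60 against 18.3, led by hth, with 2 members each in Awh, ey and toy. In this list as well, replicate 2 alone gave 5 hosts and replicate 3 alone 20, which lies above the 18.3 computed from the pooled members, so the lower count is that of the pooled list and of replicate 2. For the NK and Hox classes replicate 2 alone gave 6 and replicate 3 alone 7.

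Several families hosted no member. None of 133 chemoreceptor genes with eligible bases was a host, against 3.44 for genes of like room. Cytoplasmic ribosomal protein genes (25 with eligible bases), proteasome genes (25) and odorant-binding protein genes (15) also had 0, but their short introns would give only 0.338, 0.128 and 0.805. The members show nothing about these families at this room.

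**Figure D3:**
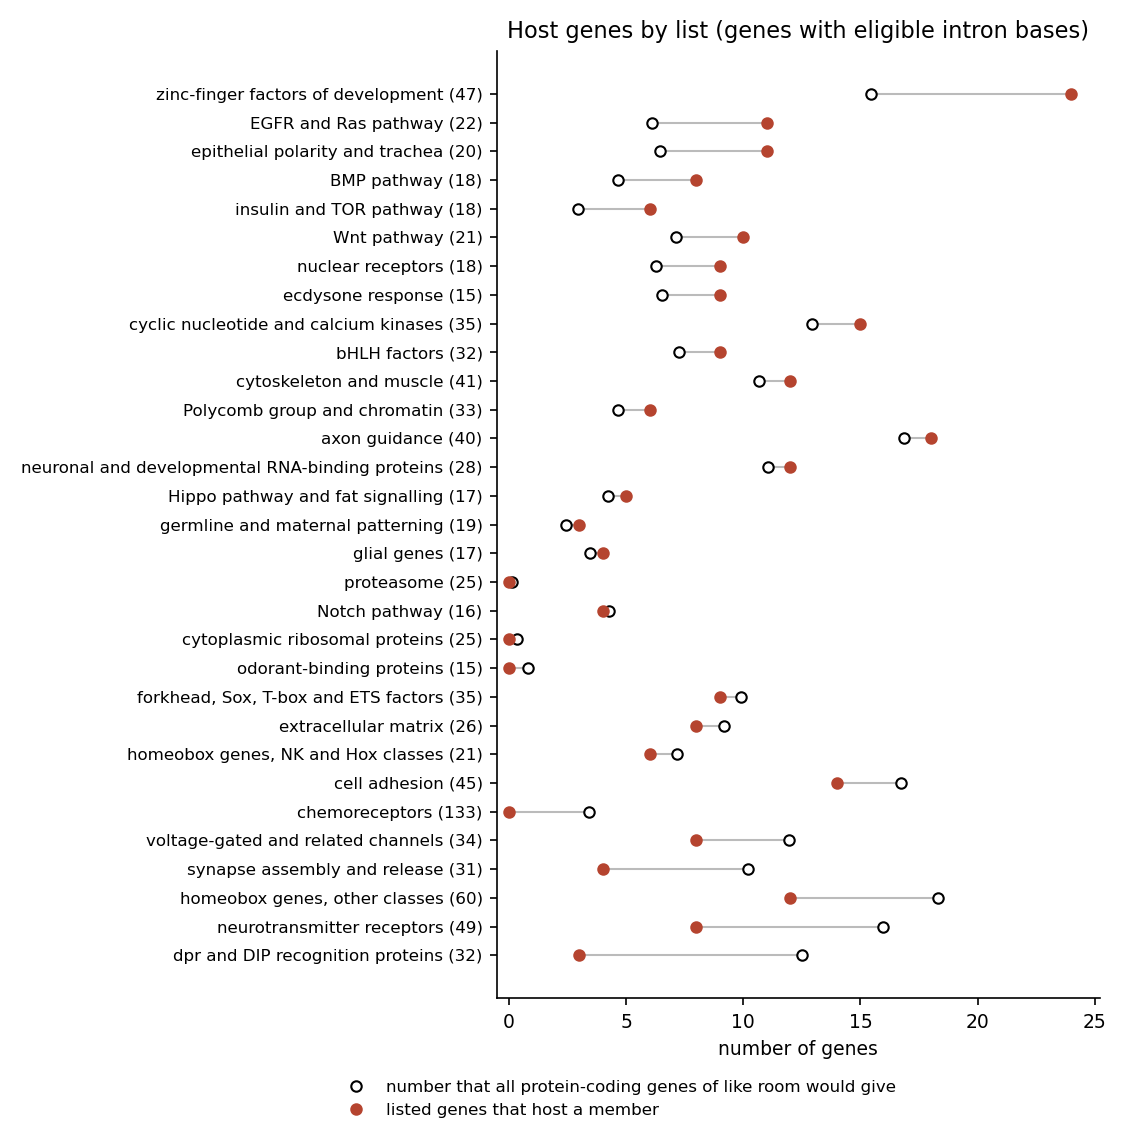
Number of listed genes that host a member (filled) and the number that all protein-coding genes of like room would give (open), for the lists shown, each with at least 15 genes with eligible intron bases, whose number stands in brackets. The zinc-finger list, with pum and psq in it, stands at the top, with 24 hosts against 15.5. The dpr and DIP list stands at the bottom, with 3 against 12.5. The lists share genes and no test was made.

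Replicate support was partial. A replicate's region was matched to a member when its summit lay within 250 bp and no other pooled summit was nearer to it. The second condition was added after the values were seen, because stronger neighbours otherwise lent their replicate regions to members. On this rule 1016 members, or 54.7%, had a region among the 6000 strongest of replicate 2, and 1066, or 57.4%, among those of replicate 3. Both replicates had one for 458 members, or 24.6% (95% Wilson interval 22.7 to 26.7%), and neither for 234, or 12.6%. Without the second condition 29.5% of members were found in both. The pooled list holds the reads of both replicates, so this support is not independent of the choice of members.

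The same share was 93.0% for IDR intronic regions, 29.7% for promoter regions of the same ranks, 23.8% for intergenic and 18.7% for exonic ones. It was 0.443% for intronic regions of ranks 6001 to 10000. Within the members it fell from 63.0% at ranks 1608 to 3000 to 16.0% at 3001 to 4500 and 2.01% at 4501 to 6000. With all 30000 regions of each replicate in place of the 6000 strongest, 86.4% of members had a region in both. Most members thus had a region in each replicate, but usually a weak one in at least 1 of them. In all 74 members, or 3.98%, had a q value below 5% in both replicates' own lists, with 42.8% below it in replicate 2 and 12.8% in replicate 3. For both lists the share was 5.78% for promoter, 2.5% for intergenic and 1.27% for exonic regions of the same ranks. The replicates also differed over their whole lists of 30000 regions, with 4619 below 5% in replicate 2 and 2050 in replicate 3.

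Strength in 1 replicate went with weakness in the other. Over the 1606 members with a region of each replicate, the replicates' signals had a Spearman correlation of -0.26, while over 435 such IDR intronic regions it was 0.56. These are descriptions across regions. A band cut from the pooled signal, to which both replicates contribute, tends to hold regions that are strong in 1 or middling in both. The choice of members thus bears on this sign, which is no measure of agreement between replicates. In their own lists the members had a median rank of 5354 in replicate 2 and 4880 in replicate 3.

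**Figure D4:**
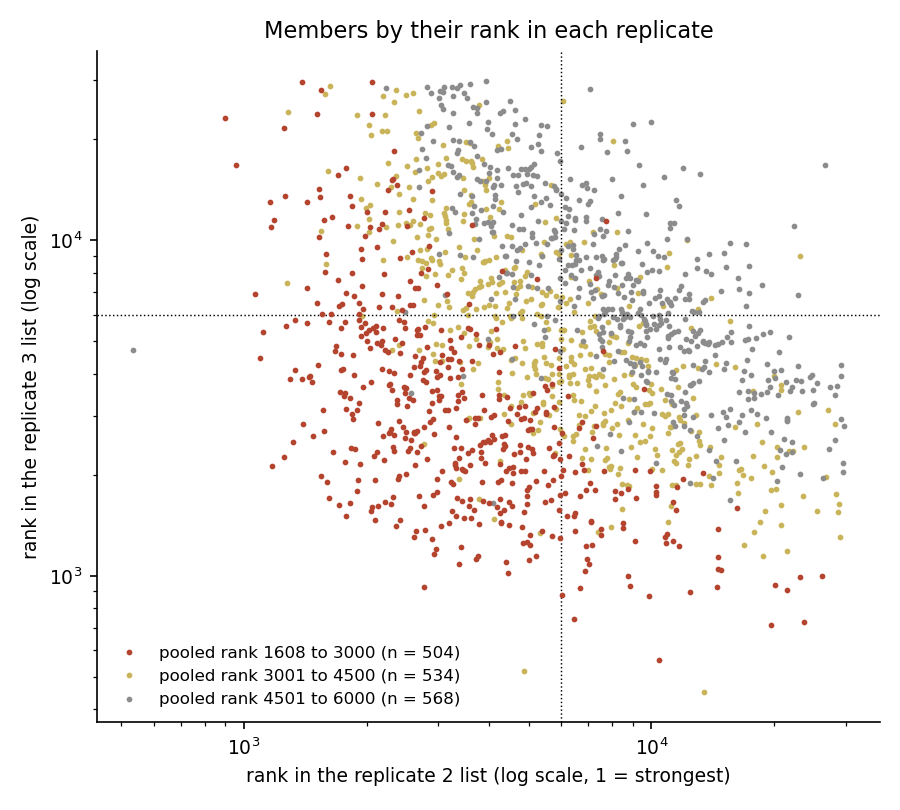
Rank of 1606 members in the list of replicate 2 and of replicate 3 (log axes, 1 is the strongest region), coloured by rank in the pooled list; dotted lines mark rank 6000. Members of pooled ranks 4501 to 6000 mostly lie beyond a dotted line on at least 1 axis. The choice by pooled signal bounds where members can lie. Of all 1858 members, 458 were among the 6000 strongest regions of both replicates and 234 of neither.

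The members best placed in both replicates came from varied genes. Ordered by the worse of both ranks, the first was in larp, which encodes an RNA-binding protein related to La (3R 28332338 to 28332773), with ranks of 1614 in replicate 2 and 1703 in replicate 3. hebe followed with 1708 and 1626, then chrb, an inhibitor gene of TOR signalling, with 1777 and 1506, and Pdcd4, which encodes a translation inhibitor, with 1818 and 1646. pnt came next with 1891 and 1785. CG6959, Dg, Got1, CG45088 and tou completed the 10, with ranks no worse than 2061. In the pooled list the IDR set ends at rank 1607, and these 10 members ranked between 1610 and 2206 there.

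The share in first introns went down with replicate support much as it did with rank. Being found in both replicates follows the pooled rank that chose the members, with 346 of the 458 such members at ranks 1608 to 3000, so this is not independent of the fall with rank. First introns held 72.5% of the 458 members found in both replicates (95% Wilson interval 68.2 to 76.4%), 68.1% of those found in replicate 2 only, 64.6% of those in replicate 3 only and 62.0% of those in neither (55.6 to 67.9%). The hosts had an IDR summit for 42.1, 39.6, 41.1 and 44.0% of these members. Members found in neither replicate's 6000 strongest thus lay in genes with an IDR summit about as often as those found in both.

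The summits of members were poor in G and C. The mean G+C content of the 101 bp at the summit was 31.6% ± 6.53 (SD over 1858 members), against 41.2% in windows of the same length centred 300 bp away and 39.98% ± 9.12 over 522818 eligible intron windows. The difference of -9.62 percentage points from the flanks lay between -12.7 for IDR intronic regions and -6.07 for intronic regions of ranks 20001 to 30000. It was -11.3 for members found in both replicates and -7.90 for members found in neither, groups that also differ in rank. Promoter regions of the same ranks had -8.79 and exonic ones -5.09, so the dip was not confined to introns. First introns (-9.76) and other introns (-9.33) were alike. The part of fragment recovery or amplification in this dip was not tested.

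**Figure D5:**
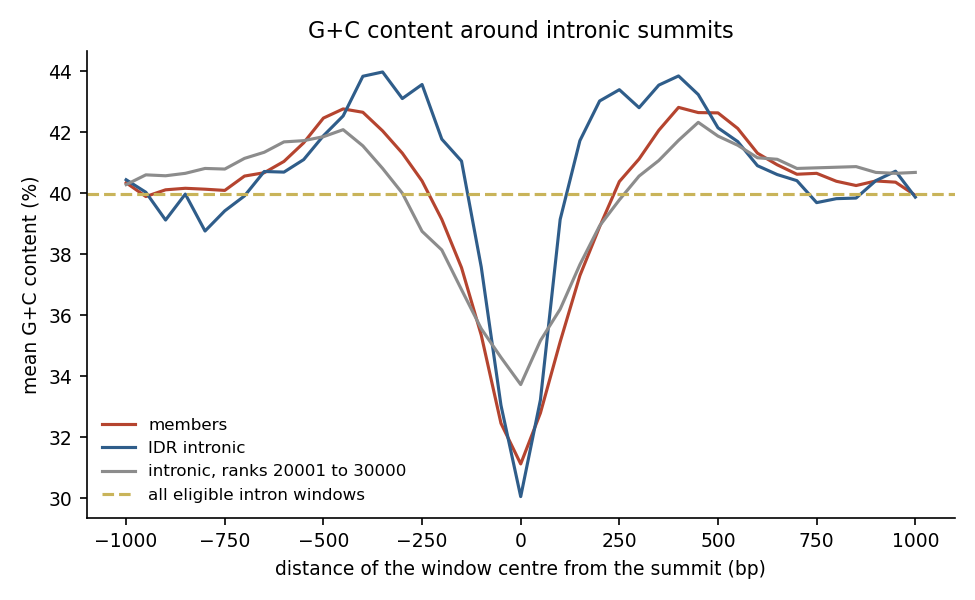
Mean G+C content (%) in windows of 51 bp against distance from the summit (bp) for members, IDR intronic regions and intronic regions of ranks 20001 to 30000, with the mean of all eligible intron windows as a dashed line. Members fall from 42.8% at 400 bp to 31.1% at the summit, a dip wider than that of the IDR regions (30.1% at the summit).

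Homeodomain motifs were not more frequent than this base composition gives. Each motif was searched on both strands in the 101 bp at the summit. Its share was set against all eligible intron windows of the same length and against these windows weighted to the members' number of G and C letters. TAATTA, the core site of many homeodomain proteins, stood in 11.03% of members (95% Wilson interval 9.69 to 12.5%), in 6.46% of flanks and 7.598% of eligible windows, but in 11.9% of the weighted windows. TAATTG stood in 13.5% of members, 10.9% of eligible windows and 13.7% of weighted ones. CAAGTG, the site type bound by NK class homeodomains, stood in 5.17% of members, 6.67% of eligible windows and 4.63% of weighted ones, and TAAGTG in 5.81, 5.38 and 5.92%. A match is a run of letters and is not shown to be a bound site, and these shares say nothing of where Hmx binds.

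For the A and T runs the weighted share was again close to that of the members. AAAAAA stood in 33.1% of members, 21.3% of eligible windows and 31.7% of weighted ones, and TTTAAA in 20.5, 10.9 and 20.2%. The E-box type CAGCTG stood in 2.53% of members (95% Wilson interval 1.91 to 3.35%), 3.57% of eligible windows and 1.76% of weighted ones. For the E-box type CATATG (4.20, 3.10 and 3.47%) and for CAGGTA, part of the Zelda site (2.21, 2.09 and 1.80%), the interval of the members' share covered the weighted share. GAGAGA, the type bound by GAGA factor, stood in 3.17, 3.84 and 2.78%, CACACA in 6.30, 9.23 and 6.23%, and CTCGAG in 0.484, 1.29 and 0.612%. TATCGATA, the DRE site of promoters, stood in 10 members, or 0.538% (95% Wilson interval 0.293 to 0.988%), 0.212% of eligible windows and 0.312% of weighted ones. It stood in 3.05% of promoter regions of the same ranks and 0.218% of IDR intronic regions. AAAAAA matches can overlap each other, and TAATTA and TAATTG can share letters in a window.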

How the data were processed

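ChIP-seq of Hmx-eGFP was represented by region lists for dm6. The signal per region was deposited by the authors on the scale of their caller, and the lists were made per replicate or on pooled alignments against a control alignment, per the file records. The deposited −log10 q value was used only as a limit of 5%. Which caller, aligner and IDR threshold produced them is not given in the sources used here. Lists on dm3 were not used here. The gene models were those of Ensembl release 115, BDGP6.54, from which transposable elements were left out. RefSeq supplied the bases, and its 6 arms were long enough for every region and gene. Coordinates are 1-based.

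The members and gene lists were chosen with earlier results of these data known. The 34 lists missed 3 symbols (Hhex, calypso and draper) and found 22 under a current name. Beside pum, psq stood wrongly in the zinc-finger list, pyd in the matrix list and mdy in the glial list. Named genes were the 20 hosts with most members, the 10 strongest and 5 weakest members, the 10 with the best worse rank over both replicates, and up to 4 hosts a list. Other genes were named from clusters, chromosome 4 or the threshold after their values were seen. Results for a few items are not reported here. Overlaps, G+C content and motifs were computed in Python 3.11.15 with numpy 2.4.6 and pandas 2.3.3, and figures with matplotlib 3.10.9, after tests on simulated regions. No test of significance was made, since there is 1 group and the rule used the measured signal. Alternatives covered rank limits, distance from a start, host type, q value, single replicates, matching and windows.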

Additional observations from a re-analysis of the deposited data

How the results depend on the processing

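Of 57 values under alternatives, 33 stayed within 1.5 times the count or within counting error and 24 moved. Of these results the G+C difference alone has a sign that could turn, and it stayed negative in each alternative. Host counts of the gene lists were not among these values, and some crossed the number for like room in 1 replicate. With replicate 3 alone, channels (18 against 11.97), other homeobox genes (20 against 18.29) and cell adhesion genes (20 against 16.72) passed it. So did forkhead, Sox, T-box and ETS factors (10 against 9.888) and odorant-binding proteins (1 against 0.8053). With replicate 2 alone Wnt genes (6 against 7.148) and axon guidance genes (13 against 16.87) lay under it. Hippo and fat genes (2 against 4.221) and germline and maternal genes (2 against 2.414) did so as well. The numbers for like room come from the pooled members, for which 11.8% of protein-coding genes with eligible bases were hosts. This share was 12.4% with replicate 3 alone and 10.7% with replicate 2 alone, so small crossings are not read as differences. With only regions of q below 5%, members fell to 632 and hosts to 502, the share in first introns was 71.99%, the G+C difference -11.09 and the share found in both replicates 58.86%. With the top 5000 of the pooled list the last 3 values were 69.53%, -10.02 and 32.78%, and with the top 8000 the G+C difference was -8.887 and the share in both replicates 16.78%. Over 1000 bp from a start, first introns held 62.79%. Windows of 25 and 100 bp either side gave G+C differences of -10.09 and -8.413, and shares with TAATTA of 5.221 and 19.64%.

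The share found in both replicates moved most. It was 30.57% for any overlap, 29.49% for any summit within 250 bp (added after seeing the data), 20.72% within 100 bp, 86.44% with all 30000 regions of each replicate and 4.09% with the top 3000. With 1 replicate's list in place of the pooled one, members numbered 1625 to 1952, hosts 998 to 1165, first introns held 60.96 to 68.06%, hosts with an IDR summit 36.22 to 39.45%, the G+C difference ran from -8.66 to -8.204 and TAATTA stood in 10.52 to 11.37%. No paired analysis was possible because there is 1 group and no second condition. Depth is unknown, since the lists hold no read counts.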

Other observations

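A scan of all 2080 6-base words, both strands together, set each word's share of member windows against eligible intron windows weighted to the members' G+C content. Among words in at least 50 members, several of the highest ratios shared the letters CACTG. The highest ratio was that of ACGTAG (52 members, ratio 2.06). The words with CACTG were ACAGTG (106 members, ratio 1.93), CAGTGC (91, 1.87), ACACTG (100, 1.84) and CACTGA (107, 1.82). The words were chosen after their values were seen, and no test was made.

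CACTG itself stood in 312 members, or 16.8% (95% Wilson interval 15.2 to 18.6%), against 10.1% of weighted windows. Without weighting the difference was small, with 14.7% of eligible windows and 15.5% of the members' own flanks. The share was 19.4% in IDR intronic regions, 16.9% in promoter and 16.2% in intergenic regions of the same ranks, 10.1% in exonic ones and 12.8% in intronic regions of ranks 6001 to 10000. Applied to each replicate alone, the rule gave 17.5% for replicate 2 and 15.5% for replicate 3. The longer word ACTGAGA stood in 41 members, or 2.21%, against 0.872% of weighted windows, 0.963% of eligible windows and 1.05% of flanks. GATAAG, a site type of GATA factors, stood in 120 members, or 6.46%, against 4.69% of weighted windows but 5.89% of flanks.

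At the other end, words such as CTTCTA (51 members, ratio 0.598) and GGCCAA (44, 0.628) were rarer in members than in weighted windows.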
